A study of Mus musculus with 4 samples.

Results

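The cluster of miR-183, miR-96 and miR-182 is a group of 3 microRNA hairpins transcribed from 1 locus, and it was followed through its 6 mature miRNAs, mmu-miR-182-5p, mmu-miR-182-3p, mmu-miR-183-5p, mmu-miR-183-3p, mmu-miR-96-5p and mmu-miR-96-3p, out of 1907 mature mouse miRNAs listed. The members were chosen by name and by their measured level, because miR-182-5p had the highest level of all miRNAs in both libraries derived from 2iL medium, so the levels in these libraries describe the cluster and carry no test of the medium. The data are 4 small RNA libraries from the mouse embryonic stem (ES) cell line E14Tg2A of the 129/Ola strain. ES serum cells were kept in fetal calf serum with LIF (leukaemia inhibitory factor), and ES 2iL cells in serum-free N2/B27 medium with LIF, the MEK inhibitor PD0325901 and the GSK3 inhibitor CHIR99021. ELA serum and ELA 2iL are epiblast-like aggregates that formed from each of these cultures during 2 days of floating culture in a chemically defined medium without LIF. All 4 groups therefore share 1 cell line, and each group is 1 library made from the pooled RNA of 3 sets of experiments, so no replicate error can be given. A further limit is that 1 label field exchanges the names of the ES 2iL and ELA serum libraries, while the titles, the other label fields and the column names give 1 and the same assignment, which is followed here. ES serum and ELA 2iL are the libraries on which all labels agree.

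Levels are given in RPM, the reads of a miRNA per 1000000 reads assigned to miRNAs in that library. The libraries held 587363 to 8056984 miRNA reads, with ES serum 13.7 times as deep as ELA 2iL, the shallowest. The miR-290 to miR-295 cluster, the hallmark miRNA cluster of mouse ES cells, summed to between 55535 and 183326 RPM, although 6 of its 18 listed miRNAs were at 0 in every library. The miR-302 and miR-367 cluster, which is known to come up in the epiblast, took 0.595% of the reads of ES serum against 3.73% in ELA serum, and 0.00784% in ES 2iL against 0.708% in ELA 2iL. By title it was thus higher in the aggregates of both media, and the miR-290 to miR-295 cluster, known to decline as cells leave the ES state, was lower in them, at 5.55% against 8.61% in serum and 14.1% against 18.3% in 2iL. Under the exchanged labels both clusters would run the other way in both media, with miR-302 and miR-367 at 0.00784% in aggregates against 0.595% in ES cells of the serum series. Both stage markers therefore go with the titles, and values under the exchanged labels are given below only to show which results rest on the assignment. Of markers of other cell types, liver miR-122-5p and both arms of endothelial miR-126a were listed at 0 in all libraries, which may also come from naming or counting, 3 muscle miRNAs summed to between 0 and 73.2 RPM, 5 neural ones to between 477 and 871 RPM, 4 of blood to between 551 and 2007 RPM and 4 mesenchymal ones to between 1470 and 4834 RPM. The part of other cell types in the values below was not tested. The blood sum was almost all miR-142a-5p, with miR-142a-3p at 0 throughout, and miR-219a-5p of the neural list was at 0 in every library. The muscle sum was mostly miR-133a-3p and the mesenchymal sum mostly miR-143-3p. In ES serum, ES 2iL, then ELA serum and ELA 2iL the muscle sum was 11.5, 0, 48.5 and 73.2 RPM. In the same order the neural sum was 657, 871, 477 and 548 RPM. The blood sum was 593, 1612, 551 and 2007 RPM, and the mesenchymal sum 3144, 4834, 1470 and 1961 RPM.

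A miRNA is cut from its hairpin as a duplex of a 5p and a 3p arm, of which 1 is usually loaded into an Argonaute protein and pairs with messenger RNAs mainly through its seed, bases 2 to 8. The 3 hairpins of the cluster lie together in vertebrate genomes and are best known from sensory organs: they are abundant in photoreceptors, in hair cells of the inner ear and in sensory neurons, and changes in the seed of miR-96 cause hearing loss in mice and humans. FOXO transcription factors are among the known targets of the cluster. In these libraries the cluster was read in stem cells and their early derivatives, far from those organs.

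In the mm9 build the cluster spans 3820 bp of the minus strand, at chr6:30115918-30119737. No other annotated gene overlaps any of its hairpins, and the gaps between them were not checked. In the direction of transcription Mir183 comes first (30119668 to 30119737), Mir96 follows after a gap of 116 bp (30119446 to 30119551), and Mir182 lies 3453 bp further on (30115918 to 30115992). The nearest protein-coding genes are Nrf1 on the plus strand, 12459 bp from Mir182, and Ube2h on the minus strand, 41551 bp from Mir183. The hairpin sequences from RefSeq (GRCm38.p6), identical to the mm9 sequence at these positions, are shown because all measured reads are assigned to their arms, which are in capitals:
Mir183: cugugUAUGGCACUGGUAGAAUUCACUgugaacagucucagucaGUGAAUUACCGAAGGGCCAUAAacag
Mir96: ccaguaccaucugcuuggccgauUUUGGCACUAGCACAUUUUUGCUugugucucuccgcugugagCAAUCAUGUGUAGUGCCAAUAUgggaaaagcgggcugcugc
Mir182: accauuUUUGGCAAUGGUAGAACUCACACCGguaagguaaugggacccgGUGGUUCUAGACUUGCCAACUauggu

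The mature arms are shown because the seeds of the 5p arms differ from each other at 1 or 2 bases. Each is written 5′ to 3′ with its seed, bases 2 to 8, in capitals:
mmu-miR-182-5p: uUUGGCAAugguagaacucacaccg
mmu-miR-183-5p: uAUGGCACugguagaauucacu
mmu-miR-96-5p: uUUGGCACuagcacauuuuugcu
mmu-miR-182-3p: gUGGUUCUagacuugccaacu
mmu-miR-183-3p: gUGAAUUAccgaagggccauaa
mmu-miR-96-3p: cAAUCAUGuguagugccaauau

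Counting from the 5′ end without gaps, miR-182-5p and miR-183-5p differ at 4 of 22 bases (U2A, A8C, C17U and A22U, with the base of miR-182-5p first), and 2 of these lie in the seed. miR-182-5p and miR-96-5p differ at 11 of 23 bases, but at 1 seed base only, A8C. miR-183-5p and miR-96-5p differ at 9 of 22 bases and likewise at 1 seed base, A2U. Among the 1623 of 1907 listed miRNAs that have a RefSeq sequence, none shares bases 2 to 8 with a 5p arm of the cluster, and the shorter seed UUGGCA, bases 2 to 7, is shared by miR-182-5p and miR-96-5p alone. Outside the cluster the closest miRNA to any of the 6 differs at 7 to 9 of the first 20 bases, and each arm matches the mm9 genome at 1 place exactly. How many mismatches were allowed when the reads were aligned is not given in the sources used here.

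All 6 miRNAs were detected in all 4 libraries, from 12 reads for miR-96-3p in ELA 2iL to 1354178 reads for miR-182-5p in ES serum. In ES serum, ES 2iL, then ELA serum and ELA 2iL, the level of miR-182-5p was 168075, 161838, 146615 and 203934 RPM. It was highest in ELA 2iL and lowest in ELA serum, and in every library it was the most abundant member. The level of miR-183-5p was 62488, 38537, 76089 and 49998 RPM in the same order. Both serum-derived libraries thus had more miR-183-5p than both 2iL-derived libraries. The level of miR-96-5p, the member known from inherited deafness, was 1312, 1060, 1417 and 1364 RPM. It was lowest in ES 2iL, and the other 3 libraries lay close together. Adaptor ligation in small RNA libraries is known to depend on the sequence of each RNA, and its part in the gaps between the members was not tested.

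The 3p arms were far lower. The level of miR-183-3p was 332, 384, 244 and 288 RPM in ES serum, ES 2iL, then ELA serum and ELA 2iL. It was higher in the ES than in the ELA library of each medium. The level of miR-182-3p was 15.5, 51.3, 12.1 and 22.1 RPM, from 125, 142, 52 and 13 reads, and that of miR-96-3p was 12.0, 29.3, 10.9 and 20.4 RPM, from 97, 81, 47 and 12 reads. Both were highest in ES 2iL and lowest in ELA serum. The 95% counting intervals of these low arms were wide, for miR-182-3p in ELA 2iL 12.9 to 37.9 RPM, and like all intervals given here they cover counting error only, since reads without molecular identifiers are not independent molecules.

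**Figure D1:**
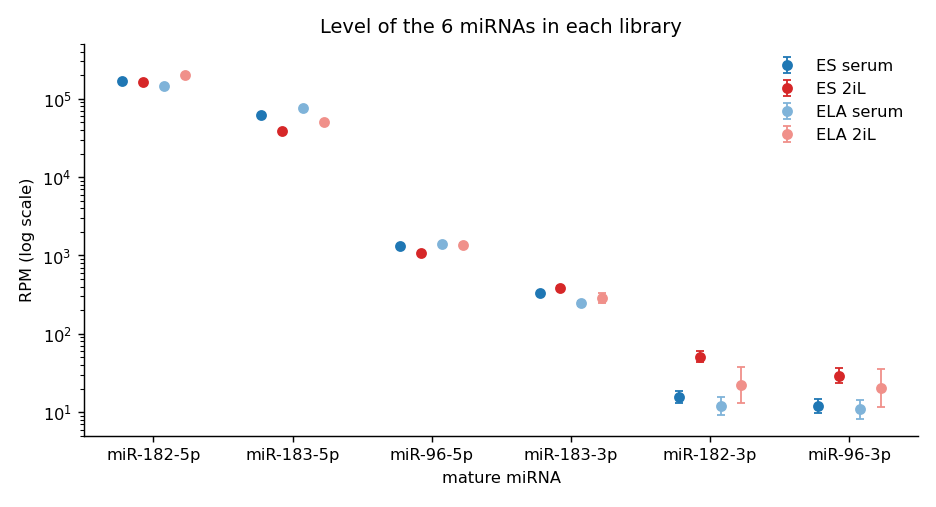
Level of each of the 6 miRNAs (RPM, log scale) in the 4 libraries, 1 point per library, with bars for the 95% Wilson counting interval, most of them smaller than the point. The 5p arms of miR-182 and miR-183 lie at 38537 RPM or above in every library, whereas miR-182-3p and miR-96-3p lie at 51.3 RPM or below.

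miR-182-5p held the first place in both 2iL-derived libraries and the second in both serum-derived ones, without being higher in ES 2iL than in ES serum. In ES serum and ELA serum the first place was held by miR-127-3p, an imprinted miRNA of the Rtl1 antisense transcript, at 174652 and 185924 RPM. Its level in ES 2iL and ELA 2iL was 40028 and 71252 RPM, 4.36-fold and 2.61-fold lower than in the serum-derived library of the same stage. The next miRNA after miR-182-5p was miR-295-3p in ES 2iL, at 126073 RPM, and miR-92a-3p in ELA 2iL, at 107463 RPM. miR-182-5p exceeded them 1.28-fold and 1.90-fold. By the other label field, which the stage markers go against, miR-182-5p would hold the first place in both libraries of aggregates. miR-183-5p held ranks 4 and 3 in ES serum and ELA serum, and ranks 6 and 5 in ES 2iL and ELA 2iL, and miR-96-5p held ranks 62 to 73.

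With scaling by library total, miR-182-5p and miR-96-5p had some of the smallest ranges over the libraries. Between its highest and its lowest library miR-182-5p differed 1.39-fold and miR-96-5p 1.34-fold. Over the 302 miRNAs whose log2(RPM + 1) averaged 5 or more, the median of this ratio was 3.18. Of these, 18 had a smaller ratio than miR-182-5p and 11 a smaller one than miR-96-5p. The 302 were not matched in level to the members, and counting error is wider for miRNAs with few reads. The ratio was 1.57 for miR-183-3p and 1.97 for miR-183-5p, with 30 and 61 of the 302 below them. For miR-182-5p the ratio stayed between 1.37 and 1.55 under the 5 scalings, with 8 to 23 of the 302 below it. With TMM scaling it was 2.03 for miR-96-5p and 3.00 for miR-183-5p, against a median of 2.73. Of the 302, 79 and 169 lay below them. The place of miR-96-5p among the smallest ranges thus depends on the scaling, though it stayed under the median. The ratio of miR-183-5p passed the median with TMM scaling. The low arms miR-96-3p and miR-182-3p, which do not reach that mean level, differed 2.68-fold and 4.25-fold, against a median of 3.57 over all 599 miRNAs that reached 10 reads in 2 or more libraries. All 6 members passed this latter filter.

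**Figure D2:**
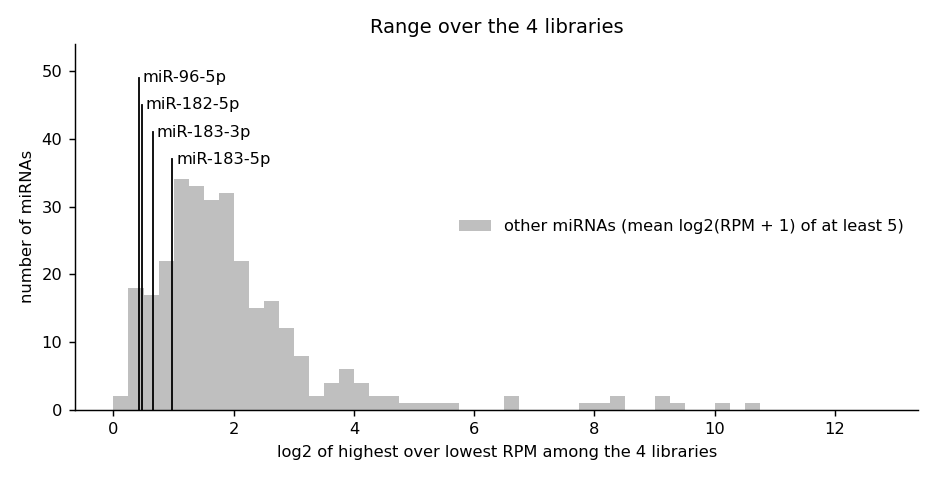
Histogram of the log2 ratio of the highest to the lowest RPM over the 4 libraries for 297 other miRNAs whose log2(RPM + 1) averaged 5 or more, with the 4 members above that mean as vertical lines whose height has no meaning. 1 further miRNA is not drawn because a library is at 0, and the 4 members lie left of most of the distribution, with miR-96-5p and miR-182-5p furthest left. With TMM scaling the ratio of miR-183-5p, 3.00, would lie above the median.

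Summed over its 6 miRNAs the cluster took 23.2% of all miRNA reads in ES serum (95% Wilson counting interval 23.2 to 23.3%) and 22.4% in ELA serum (22.4 to 22.5%), against 20.2% in ES 2iL (20.1 to 20.2%) and, the highest share, 25.6% in ELA 2iL (25.5 to 25.7%). In every library at least 20.2% of the reads thus came from this single locus. That highest share was 1.27 times the lowest. For the 18 listed miRNAs of the miR-290 to miR-295 cluster, of which 6 at 0 add nothing and may be undercounted, the shares in ES serum, ES 2iL, then ELA serum and ELA 2iL were 8.61, 18.3, 5.55 and 14.1%, a range of 3.30-fold, and for the 12 of the miR-17 to miR-92a cluster, of which miR-19b-3p and miR-92a-3p also arise from another locus, they were 9.18, 8.64, 8.22 and 14.2%, a range of 1.72-fold. The 10 miRNAs of the miR-302 and miR-367 cluster ranged 476-fold. With 1 library per group these ranges have no test. In the libraries on which all labels agree, ES serum and ELA 2iL, the share of the cluster differed 1.10-fold.

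**Figure D3:**
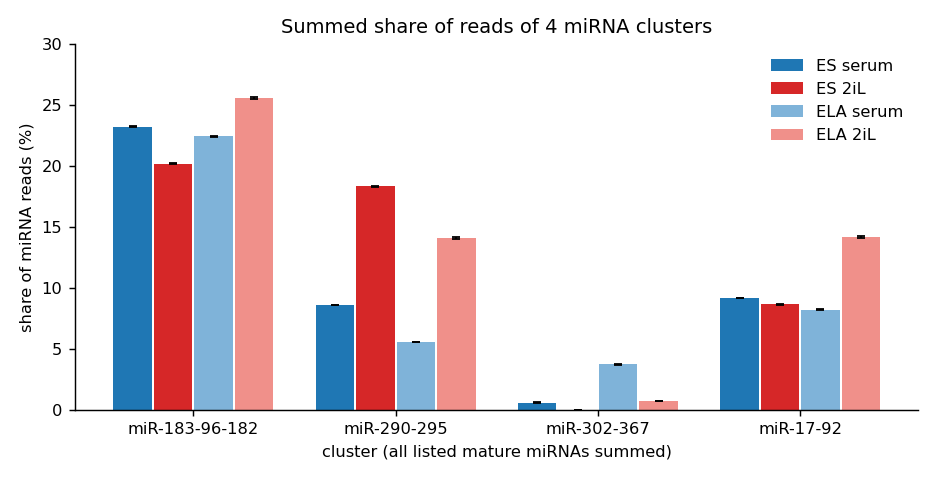
Share of all miRNA reads (%) taken by the summed mature miRNAs of 4 clusters in each library, with bars from 0 and black marks for the 95% Wilson counting interval. The bars of the cluster of miR-183, miR-96 and miR-182 stay between 20.2 and 25.6%, and the miR-290 to miR-295 bars run from 5.55 to 18.3%.

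Culture medium was compared between the 2iL-derived and the serum-derived library of each stage, with exact 95% counting intervals and no test. The summed cluster in ES 2iL was 0.869 times that in ES serum (0.867 to 0.872), and in ELA 2iL 1.14 times that in ELA serum (1.13 to 1.15). For miR-182-5p the ratios were 0.963 (0.960 to 0.966) and 1.39 (1.38 to 1.40). With scaling by library total the direction of both therefore differed between the stages, but the log2 difference of miR-182-5p in aggregates, 0.48, was 0.04 with TMM scaling and -0.0085 with DESeq2 size factors. miR-183-5p was lower in the 2iL-derived library at both stages, at 0.617 times the serum value in ES cells (0.613 to 0.621) and 0.657 times in aggregates (0.649 to 0.665). This direction rests on the titles, with which the stage markers go, and under the exchanged labels it would turn, to 1.22 times the serum value in ES cells and 1.30 times in aggregates. For miR-96-5p the ratios were 0.808 (0.775 to 0.842) and 0.963 (0.893 to 1.04), and the interval in aggregates includes 1.

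The low 3p arms had their highest values in ES 2iL. miR-182-3p was 3.31 times as high in ES 2iL as in ES serum (2.58 to 4.24) and miR-96-3p 2.43 times (1.79 to 3.30). In aggregates the corresponding ratios were 1.83 (0.916 to 3.42) and 1.87 (0.904 to 3.59), and both intervals include 1 at this depth. As a mean over the stages, on the log2(RPM + 1) scale on which all log2 differences here are given, these arms were 1.24 and 1.03 higher in 2iL-derived libraries. They were the 2 of 6 members past a log2 difference of 1 upwards, against 24.5% of the 599 miRNAs, and 0 of 6 were past it downwards, against 15.7%. In ES cells alone the same 2 of 6 were past it upwards, against 30.7% of the 599. The counts rest on the scaling: with TMM scaling 0 of 6 were past it as a mean over the stages and 1 of 6, miR-182-3p, in ES cells, where miR-96-3p was 0.66 higher, and DESeq2 size factors gave the same counts. These counts use the contrast by which the members were chosen and are printed as description.

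RPM values depend on what the other miRNAs do. The median miRNA of the 302 was 0.44 higher in ES 2iL than in ES serum and 0.37 higher in ELA 2iL than in ELA serum on the log2 scale. Relative to this median miR-182-5p lay at -0.49 in ES cells and 0.11 in aggregates, and miR-183-5p at -1.14 and -0.97. With TMM scaling, which equalises the bulk of the miRNAs, the summed cluster was lower in the 2iL-derived library at both stages, by -0.78 and -0.25. The sign of its difference in aggregates thus turned with the scaling, whereas with the libraries assigned by title that of miR-183-5p was negative under all 5 scalings, from -1.27 to -0.70 in ES cells and from -1.09 to -0.55 in aggregates.

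Ratios between members of the same library do not depend on the scaling. The reads of miR-182-5p over those of miR-183-5p stood at 2.69 in ES serum (2.68 to 2.70) and 1.93 in ELA serum (1.92 to 1.94), against 4.20 in ES 2iL (4.17 to 4.23) and a similar 4.08 in ELA 2iL (4.03 to 4.13). Both 2iL-derived libraries lay near 4, and both serum-derived libraries below 3. The ratio was higher in the 2iL-derived library by a factor of 1.56 in ES cells (95% Wald counting interval 1.55 to 1.57) and 2.12 in aggregates (2.09 to 2.15). Of the reads of the cluster, 72.4, 80.2, 65.3 and 79.8% belonged to miR-182-5p in ES serum, ES 2iL, then ELA serum and ELA 2iL, and 26.9, 19.1, 33.9 and 19.6% to miR-183-5p. In the libraries on which all labels agree the ratio of miR-182-5p to miR-183-5p was 1.52 times as high in ELA 2iL as in ES serum (1.50 to 1.54). Under the exchanged labels the same 4 ratios would divide the libraries by stage and not by medium, while miR-302 and miR-367 would be lower in aggregates in both media.

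The other pairs of 5p arms differed less between the media. The ratio of miR-182-5p to miR-96-5p was 128, 153, 103 and 150 in ES serum, ES 2iL, then ELA serum and ELA 2iL, and that of miR-183-5p to miR-96-5p was 47.6, 36.4, 53.7 and 36.7. miR-96-5p thus lay between the other 5p arms in its difference between the media. In 2iL-derived cells the step from ES cells to aggregates left the mix almost as it was: the ratio of miR-182-5p to miR-183-5p differed by a factor of 0.971 (0.957 to 0.985), that of miR-182-5p to miR-96-5p by 0.979 (0.906 to 1.06) and that of miR-183-5p to miR-96-5p by 1.01 (0.932 to 1.09). In serum-derived cells these factors were 0.716 (0.713 to 0.720), 0.808 (0.783 to 0.834) and 1.13 (1.09 to 1.16).

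**Figure D4:**
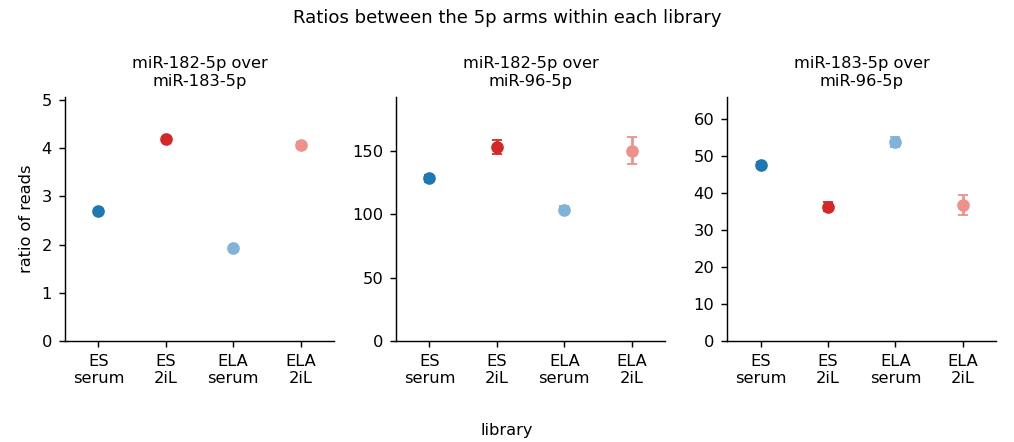
Ratio of reads between pairs of 5p arms within each library (linear axes from 0), with bars for the 95% counting interval. The ratio of miR-182-5p to miR-183-5p is 4.20 and 4.08 in the 2iL-derived libraries and 2.69 and 1.93 in the serum-derived ones.

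The step from ES cells to epiblast-like aggregates was compared within each medium and tested with limma over 599 miRNAs, in an additive model of stage and medium that leaves 1 residual degree of freedom. From ES serum to ELA serum the log2 differences of miR-182-5p, miR-183-5p and miR-96-5p were -0.20, 0.28 and 0.11. From ES 2iL to ELA 2iL they were 0.33, 0.38 and 0.36. All 3 were thus higher in aggregates of the 2iL series, 1.26-fold for miR-182-5p (1.25 to 1.27), 1.30-fold for miR-183-5p (1.28 to 1.31) and 1.29-fold for miR-96-5p (1.19 to 1.39), while the median of the 302 miRNAs lay at -0.17. In the serum series miR-182-5p was 0.872 times as high in aggregates (0.870 to 0.875), and the median lay at 0.00, but with DESeq2 size factors its log2 difference was -0.00075.

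None of the 6 passed an adjusted p of 0.05 for stage. The fitted differences with their standard errors were 0.07 ± 0.45 for miR-182-5p (limma adjusted p = 0.938), 0.33 ± 0.44 for miR-183-5p (limma adjusted p = 0.692) and 0.24 ± 0.44 for miR-96-5p (limma adjusted p = 0.776). For the 3p arms they were -0.43 ± 0.44 for miR-183-3p (limma adjusted p = 0.587), -0.76 ± 0.48 for miR-182-3p (limma adjusted p = 0.392) and -0.31 ± 0.45 for miR-96-3p (limma adjusted p = 0.708). The difference of miR-182-3p was larger than its standard error and those of the other 5 were smaller, and the standard errors include any difference of the stage effect between the media. limma called 0 of the 599 miRNAs (0%), with 125 at an unadjusted p below 0.05, whereas edgeR called 39 (6.51%) and DESeq2 50 (8.35%), and none of the 6 members was among the calls of either. By size alone 0 of 6 members were past a mean log2 difference of 1, against 11.9% of the 599 upwards and 21.7% downwards. Within the 2iL series 1 of 6, miR-182-3p at -1.18, was past it downwards, against 29.9%.

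In both media the 5p arms of miR-183 and miR-96 were higher and all 3 of the 3p arms lower in aggregates than in ES cells, although the counting intervals of miR-96-3p in both media and of miR-182-3p in serum include no difference and miR-96-3p in serum turned to 0.05 with DESeq2 size factors. miR-182-5p was lower in aggregates in serum and higher in 2iL. Under the exchanged labels, against which the miR-302 and miR-367 shares of 0.00784% in ES 2iL and 3.73% in ELA serum run, miR-183-5p and miR-96-5p would be lower in aggregates in both media, at 0.617 and 0.657 times the ES value for miR-183-5p, and all 3 of the 3p arms higher. Arm use, the split of the reads of a hairpin between its arms, does not depend on the scaling. The 3p arm held 0.00923, 0.0317, 0.00823 and 0.0109% of the reads of miR-182 in ES serum, ES 2iL, then ELA serum and ELA 2iL. For miR-183 its share was 0.529, 0.986, 0.320 and 0.572%, and for miR-96 it was 0.909, 2.69, 0.764 and 1.48%. In each hairpin the 3p share was highest in ES 2iL and lowest in ELA serum. miR-182 was the most one-sided of the 123 hairpins that had at least 100 reads in sum and reads of both arms in every library. It was so in all 4 libraries. Hairpins with an arm at 0 in a library were left out of this ranking, such as miR-142a, whose 3p arm was at 0 throughout. Of the 123, between 13 and 31 were more one-sided than miR-183 and between 27 and 54 more than miR-96.

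The ratio of the 5p to the 3p arm was lower in the 2iL-derived library at both stages for all 3 hairpins. This held for 37 of the 123 hairpins, or 30.1%, for their dominant over their minor arm. For miR-183, the hairpin with the most 3p reads, the ratio in 2iL-derived cells was 0.533 times the serum value in ES cells (0.497 to 0.573) and 0.558 times in aggregates (0.474 to 0.656). For miR-96 it was 0.332 (0.247 to 0.447) and 0.514 times (0.271 to 0.973), and for miR-182 it was 0.291 times in ES cells (0.229 to 0.370), while the value in aggregates, 0.758, had an interval of 0.413 to 1.39 from 13 reads of the 3p arm. On the log2 scale these changes were between -1.78 and -0.40, where the medians of the 123 hairpins were 0.06 in ES cells and -0.01 in aggregates. The ratio was also higher in aggregates than in ES cells in both media for all 3 hairpins, which held for 33.3% of the 123. Only miR-183 had intervals clear of 1 in both media, at 1.66 (1.54 to 1.78) in the serum series and 1.73 (1.47 to 2.04) in the 2iL series. ELA 2iL against ES serum, on which all labels agree, gave 0.923 (0.790 to 1.08) for miR-183, and the intervals of miR-96 and miR-182 likewise included 1. If the labels that the stage markers go against were used, the ratio of the 5p to the 3p arm would be higher with 2iL and lower in aggregates for all 3 hairpins.

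**Figure D5:**
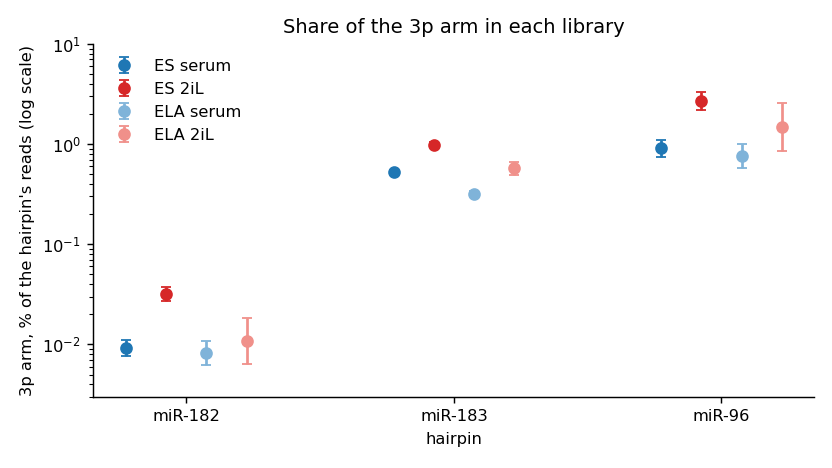
Share of the 3p arm in the reads of each hairpin (%, log scale) in the 4 libraries, with bars for the 95% Wilson counting interval. In each hairpin ES 2iL is highest, at 0.0317% for miR-182, 0.986% for miR-183 and 2.69% for miR-96, and ELA serum is lowest.

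Grouped by the shorter seed, miR-182-5p made up 99.0 to 99.3% of the reads of UUGGCA, and miR-96-5p the rest. This seed took 16.9, 16.3, 14.8 and 20.5% of all reads in ES serum, ES 2iL, then ELA serum and ELA 2iL, which was rank 2, 1, 2 and 1 among 1102 seeds, and AUGGCA of miR-183-5p held ranks 4 to 6. The sequences of these seeds, given above, differ in their first base.

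The miRNAs whose pattern was most like that of miR-182-5p were miR-497a-5p, miR-130b-5p, miR-92a-3p, miR-543-3p and miR-433-5p, at Euclidean distances of 0.106, 0.121, 0.138, 0.225 and 0.239 between log2(RPM + 1) profiles centred on their means over 4 libraries. The median distance of the 301 candidates was 1.25. miR-96-5p was the 15th most like miR-182-5p, at 0.449, and miR-183-5p the 96th, at 0.927. For miR-183-5p the most like was miR-411-5p, at 0.127, and for miR-96-5p it was miR-433-5p, at 0.222. Neither had another member of its own cluster among its 15 most like miRNAs, but both had one soon after. miR-96-5p was the 16th most like miR-183-5p, at 0.486, where the median of the candidates was 1.69. miR-182-5p was the 17th most like miR-96-5p, at 0.449, where the median was 1.38. With 4 libraries these distances are descriptions only.

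Of 9 other miRNAs known from sensory organs, all tested, 0 were past a mean log2 difference of 1 upwards and 2 downwards with stage, against 11.9% and 21.7% of the 599 miRNAs, and 2 upwards and 1 downwards with 2iL, against 24.5% and 15.7%, so these counts lay near the shares of all miRNAs. Those downwards with stage were neural miR-124-3p, at -1.13, and miR-211-5p, at -2.71. Those upwards with 2iL were miR-211-5p, by 7.25, and miR-204-5p, by 1.75, which share a family and are known from the retinal pigment epithelium. The level of miR-204-5p was 4.84, 36.1, 6.27 and 11.9 RPM in ES serum, ES 2iL, then ELA serum and ELA 2iL. Whether reads of miR-211-5p were counted for it was not tested. The one downwards was the neural miR-9-3p, at -1.44, from 8.32, 2.17, 5.80 and 1.70 RPM in the same order. In ELA 2iL this is 1 read, under the limit of 5.11 RPM that 3 reads make there. The level of miR-211-5p was 8.69, 5847, 4.87 and 223 RPM in ES serum, ES 2iL, then ELA serum and ELA 2iL, a range far wider than that of any member of the cluster. Of 5 miRNAs of the miR-200 family, known from epithelia, 0 were past it with stage in either direction, and with 2iL 0 upwards and 1 downwards, miR-200b-3p at -1.76, beside the same shares of the 599. The median difference with 2iL was 0.01 for the sensory list and -0.32 for the epithelial list, against 0.32 over the 599 miRNAs.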

How the data were processed

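The 4 libraries were made with the TruSeq Small RNA kit and sequenced as single reads on a MiSeq. Per the submitters' processing notes and the methods of the study, the authors called bases with CASAVA 1.8, trimmed adaptors with Trimmomatic, aligned with Bowtie to mm9, counted reads on miRBase 20 mature miRNAs with featureCounts and divided by the library total. The deposited values are RPM. Other versions, mismatches and the treatment of reads with several matches are not given in the sources used here. All RPM values were whole multiples (tolerance 0.001 read) of 1 read, which gave the reads per miRNA and totals of 8056984, 2767016, 4309257 and 587363 for ES serum, ES 2iL, then ELA serum and ELA 2iL. 3 reads, the limit that a count of 0 allows, equal 0.372 to 5.11 RPM. Columns were assigned by title. 0 columns of values were left unassigned.

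Differences were taken on log2(RPM + 1). Shares have 95% Wilson and ratios of shares exact Clopper-Pearson counting intervals. Stage was tested with limma 3.58.1 (R 4.3.3, two-sided, Benjamini-Hochberg over 599 miRNAs that reached 10 reads in 2 or more libraries, prior degrees of freedom 3.79). The test was checked on simulated data. Alternatives were edgeR 4.0.16 and DESeq2 1.42.0 on the recovered reads, other scalings, pseudocounts of 0.5 and 5 RPM, no filter, and limma-trend. The miRNAs named are the 6 members, the 5 most like miR-182-5p, the nearest to the other 5p arms, the miRNA next in rank where a member is first, those sharing a seed, and the marker and sensory lists. miR-127-3p, first in the serum-derived libraries, and the examples of the lists were named after their values were seen. The members and lists were chosen with earlier results of these data known.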

Additional observations from a re-analysis of the deposited data

Results flagged for a closer look

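Differences in opposite directions in the groups compared drew attention to miR-182-5p and to the summed cluster. For stage, the level of miR-182-5p in aggregates was 0.872 times that in ES cells in the serum series and 1.26 times in the 2iL series, and for the summed cluster these ratios were 0.966 and 1.27. For medium, 2iL over serum, the ratio for miR-182-5p was 0.963 in ES cells and 1.39 in aggregates, and for the summed cluster 0.869 and 1.14. The counting interval of each of these ratios excludes 1. With 1 library per group the differences between series were not tested. Both pairs of ratios come from the same 4 libraries, so the contrast between the media and the contrast between the stages are the same difference. For medium in aggregates, miR-182-5p turned sign with DESeq2 size factors and the summed cluster with TMM scaling and DESeq2 size factors, and for stage in serum the summed cluster turned with DESeq2 size factors, with which the log2 difference of miR-182-5p was -0.00075, so that its opposite directions were all but lost.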

How the results depend on the processing

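limma called 0 miRNAs for stage, as it did with totals without the 6 members, with a pseudocount of 0.5 RPM and with limma-trend, but the count was 39 with edgeR, 50 with DESeq2, 28 with TMM scaling, 84 with DESeq2 size factors, 9 with a pseudocount of 5 RPM and 99 without the filter. No member passed under any of the 9 alternatives (lowest adjusted p 0.362) and none changed sign. The log2 difference of the summed cluster between ELA serum and ES serum was -0.05, and it was -0.021 with TMM scaling, -0.12 and -0.064 with totals without the 5 most abundant miRNAs or the 6 members, and 0.15 with DESeq2 size factors, which turned the sign. Between ELA 2iL and ES 2iL it was 0.34, and 0.50, 0.59, 0.44 and 0.46 in the same order. Between ES 2iL and ES serum it was -0.20, and -0.78, -0.48, -0.26 and -0.61. Between ELA 2iL and ELA serum it was 0.19, and 0.23 and 0.25 with the totals but -0.25 with TMM scaling and -0.30 with DESeq2 size factors, which turned the sign. miR-183-3p between ES 2iL and ES serum turned from 0.21 to -0.36 (TMM), -0.19 (DESeq2 size factors) and -0.070 (without the 5 most abundant), and miR-182-5p between ELA 2iL and ELA serum from 0.48 to -0.0085 (DESeq2 size factors). The ratio of highest to lowest library, tried under other scalings after seeing the data, moved by over 1.5 times for miR-183-5p, miR-96-5p, miR-182-3p and miR-96-3p with TMM scaling, and for the first 3 of these with DESeq2 size factors. The cause of these changes was not tested. Of the other differences of single members, 91 stayed within their counting interval and 49 moved beyond it with the same sign or an interval that includes no difference. A block by replicate number could not be fitted, since each group is 1 library and the labels carry no such numbers. The stage test has medium as a term and so sets each ELA library against the ES library of its medium, and leaving out a library leaves it no residual degree of freedom. Depth limits miR-182-3p and miR-96-3p most, with 13 and 12 reads in ELA 2iL.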
